A study of Mus musculus with 6 samples.

Results

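The proteasome genes measured here are the 40 listed genes whose symbols begin with Psma, Psmb, Psmc, Psmd, Psme, Psmf or Psmg, out of 8191 genes in the deposited table. RNA-seq was done on myeloid-derived suppressor cells (MDSCs, immature myeloid cells that suppress T cells) from spleens of wild-type (WT), Tnfr1-/- and Tnfr2-/- mice, the last 2 of which lack the first or the second receptor for tumour necrosis factor. All mice were untreated, on the BALB/c background and 18 to 24 months old, and the cells were not cultured. MDSCs were isolated with a kit, and their purity was checked by flow cytometry for CD45, Gr1 and CD11b. Each genotype had 2 samples, each made from pooled cells of 5 mice, so single animals cannot be seen. The question is whether losing either receptor changed the transcripts of the proteasome, and whether Tnfr2-/- differed from Tnfr1-/-.

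The proteasome is the cell's main machine for degrading proteins tagged with ubiquitin. Its core particle is a barrel of alpha and beta rings whose beta subunits cut proteins, and a regulatory cap of ATPase and non-ATPase subunits recognises, unfolds and feeds substrates into the barrel. Immune cells and cells under interferon replace the catalytic beta subunits with immunoproteasome subunits and add the 11S activator, a change that alters the peptides offered on class I molecules.

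Of 50 protein-coding genes with these prefixes in the GENCODE M21 annotation of GRCm38, 40 were listed. Psma7, Psmb8, Psmb9, Psmb11, Psmc3ip, Psme1, Psme2b, Psme3, Psmg2 and Psmg4 were not analysed here. The immunoproteasome is therefore represented by its catalytic subunit Psmb10 and the activator subunit Psme2 alone, and the ratios of Psmb8 to Psmb5 and of Psmb9 to Psmb6 could not be formed. The members comprised 14 core subunits, 17 cap subunits, Psmb10, the activators Psme2 and Psme4, the inhibitor Psmf1, 3 cap assembly chaperones and 2 core assembly chaperones.

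The libraries stand apart by genotype in ways that touch every comparison with WT. The values of the 8191 genes summed to 344714 and 346870 FPKM, a read density normalised to transcript length and library size, in WT, 134343 and 133604 in Tnfr1-/-, and 148956 and 155248 in Tnfr2-/-. WT values carried up to 10 digits and knockout values up to 6, so processing and genotype cannot be told apart. The median gene changed by -0.74 (Tnfr2-/- against WT) and -0.83 (Tnfr1-/- against WT) on the log2 scale, and by -0.03 in both after median-ratio scaling, which divides each sample by its typical ratio to the other samples. All 9 macrophage markers were listed, with sums of 3120 and 3260 FPKM in WT against 281 to 392 FPKM in the knockouts. After scaling 8 of the 9 stayed below 0 in each knockout, while Spic was at 0.25 (Tnfr2-/-) and 0.08 (Tnfr1-/-). Neither Spic nor Hmox1 was called after scaling, nor was Vcam1 in Tnfr1-/-. The granulocyte and MDSC markers went the other way from the macrophage sums. Of 14, 3 were listed (Ly6c1, Csf3r and Retnlg), with sums of 12.5 and 10.3 FPKM in WT against 1510 to 2750 FPKM in the knockouts. These 3 go against the MDSC label in WT. The rest of that list could not be read, because listed genes are those that passed the authors' ANOVA. The 4 of 5 listed B cell markers summed to 46.5 and 46.9 FPKM in WT and 167 to 382 FPKM in the knockouts, and the 3 of 5 listed dendritic cell markers to 220 and 217 FPKM against 14.1 to 19.5 FPKM. Nearly all of the dendritic sum was Itgax, while Flt3 of the same list was called higher in both knockouts, at 0.1557 and 0.2599 FPKM in WT and 1.21 to 2.336 FPKM in the knockouts. The 2 of 6 listed T and NK cell markers went opposite ways, with Cd3d at 3.207 and 3.39 FPKM in WT and 6.775 to 16.4 FPKM in the knockouts, and Cd4 at 24.19 and 25.67 FPKM in WT and 3.856 to 4.891 FPKM in the knockouts. No erythroid marker was listed, and no listed marker was at 0. In bulk samples fewer cells of a type and less RNA per cell cannot be told apart, and the part of these differences in the results below was not tested. Tnfrsf1b, the gene removed in Tnfr2-/-, was at 111.8 and 114.9 FPKM in WT, 47.81 and 69.57 FPKM in Tnfr1-/-, and 11.34 and 14.31 FPKM in Tnfr2-/-, lowest in the samples labelled as its knockout. The other targeted receptor gene, Tnfrsf1a, was not analysed here.

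Proteasome transcripts were lower in both knockouts than in WT on the deposited scale. The 40 members together summed to 2914.9 and 2918.1 FPKM in WT, 1026.7 and 952.7 FPKM in Tnfr1-/-, and 1070.0 and 1453.3 FPKM in Tnfr2-/-. Their share of all listed FPKM differed less, at 0.846% and 0.841% in WT, 0.764% and 0.713% in Tnfr1-/-, and 0.718% and 0.936% in Tnfr2-/-. The second Tnfr2-/- sample had the highest share of the 6. In share Tnfr2-/- thus overlapped both other genotypes, while WT and Tnfr1-/- stayed apart. In sum no genotypes overlapped. Every one of the 40 members was higher in both WT samples than in all 4 knockout samples, as were 76.4% of all listed genes.

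**Figure D1:**
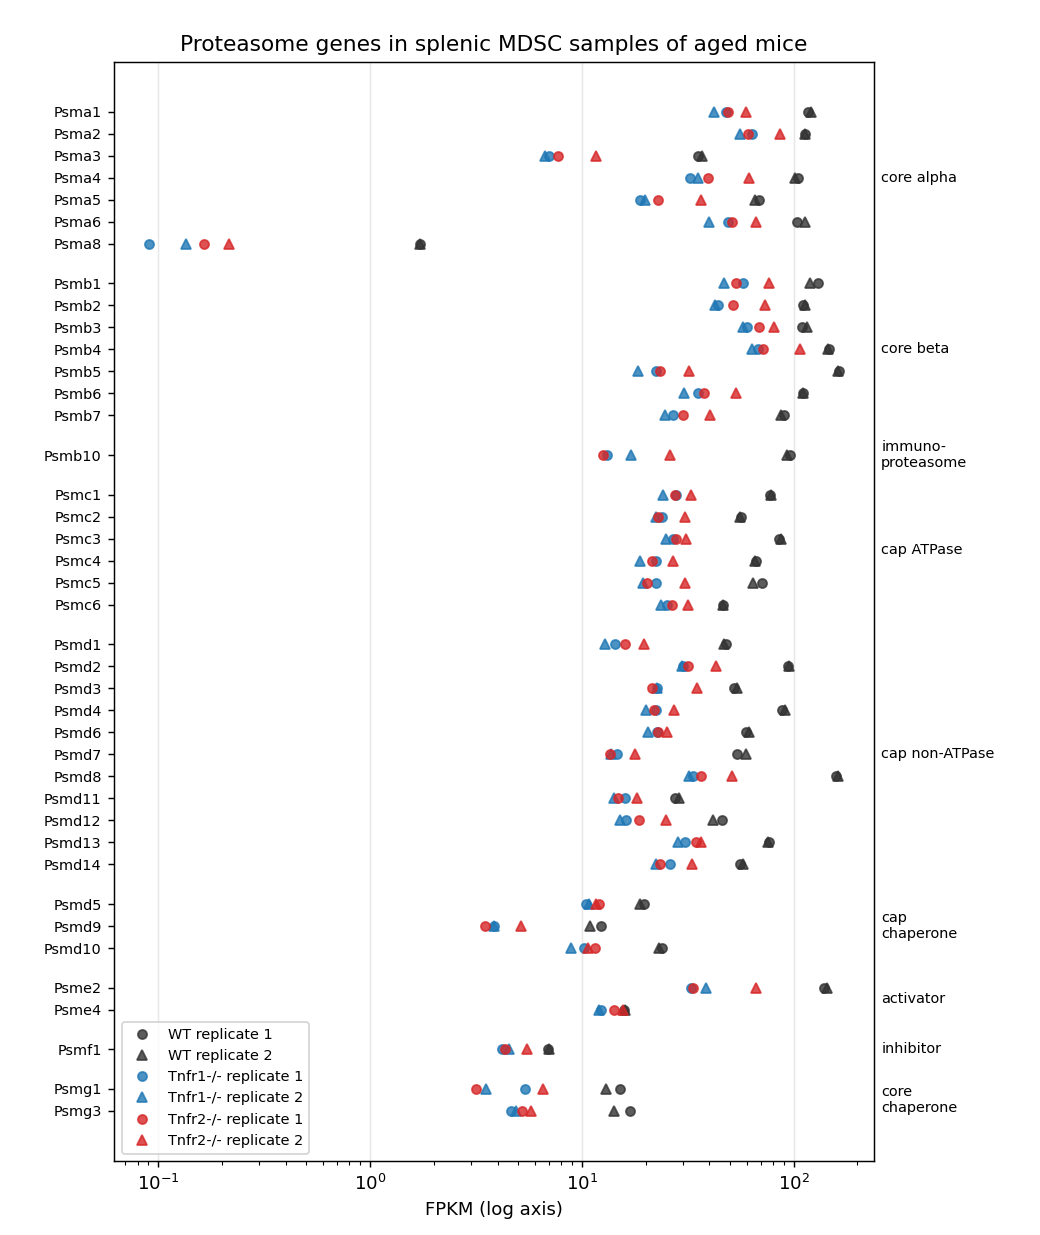
FPKM (log axis) of each of the 40 proteasome genes in the 6 samples, grouped by role, with circles for replicate 1 and triangles for replicate 2. Both black WT points lie to the right of all knockout points for every gene, by the narrowest margin for Psme4.

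With limma, 38 of 40 members were called lower in Tnfr2-/- than in WT (adjusted p under 0.05 and a fold over 1.5), beside 57.1% of all genes called lower. The members' median log2 change was -1.19 and, with 1 FPKM added, ranged from -2.53 for Psmb5 to -0.10 for Psme4. In Tnfr1-/- against WT, which shares the WT samples, 38 were likewise called lower beside 60.7% of all genes, with a median of -1.44. The 2 members not called in either comparison were Psme4 and Psmf1. After median-ratio scaling the split changed to 7 called lower and 1 higher in Tnfr2-/-, where 21.0% of all genes were called lower and 21.8% higher, and the median change was -0.25, with 28 members below 0 and 12 above. In Tnfr1-/- it became 12 lower and 1 higher, beside 22.1% lower and 23.3% higher of all genes, with a median of -0.41, 33 members below 0 and 7 above. Those above 0 in both were Psma2, Psmb3, Psmc6, Psmd5, Psmd11, Psme4 and Psmf1, and Psma6, Psmb1, Psmb2, Psmb4 and Psmd3 were above 0 in Tnfr2-/- alone. On that scale both WT samples lay above all knockout samples for 22 members (41.1% of all genes) and below them for 7 (36.5% of all genes). Most of the fall on the deposited scale is thus shared with the typical listed gene. Called lower on both scales were 7 members in Tnfr2-/- and 12 in Tnfr1-/-.

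**Figure D2:**
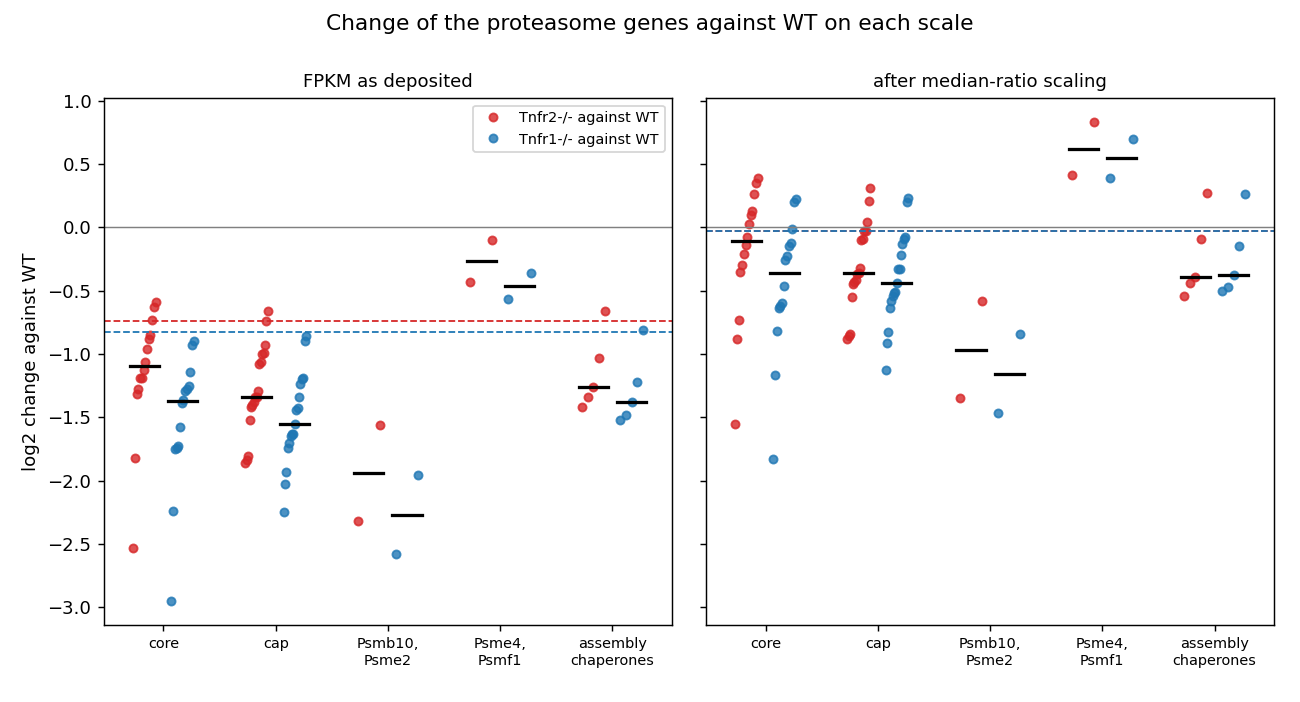
Log2 change against WT of the 40 proteasome genes by subcomplex, on deposited FPKM (left) and after median-ratio scaling (right). Bars are group medians and dashed lines the median of all 8191 genes; Psmb5 is the lowest core point in each comparison and Psme4 and Psmf1 lie above 0 only after scaling.

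The catalytic subunits did not fall in proportion. Psmb5 (chr14:54614119-54618022, minus strand, GRCm38) carries the chymotrypsin-like activity of the core, the site blocked by bortezomib. It was at 163.8 and 161.9 FPKM in WT, 22.36 and 18.38 FPKM in Tnfr1-/-, and 23.32 and 32.06 FPKM in Tnfr2-/-. All 4 knockout samples lay far under WT, and both Tnfr2-/- samples lay just above both Tnfr1-/- samples. The log2 change was -2.53 ± 0.18 (SE, limma adjusted p = 0.000178) in Tnfr2-/- and -2.95 ± 0.18 (limma adjusted p = 0.0001) in Tnfr1-/-. After scaling it remained at -1.55 and -1.83, both called. By level per length Psmb5 ranked 1st of the 40 members in WT, 25th in Tnfr1-/- and 21st in Tnfr2-/-, whereas Psmb4, a structural beta subunit, went from 3rd in WT to 1st in both knockouts.

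Psmb6, which carries the caspase-like activity, was at 110.5 and 110.6 FPKM in WT, 35.36 and 30.21 FPKM in Tnfr1-/-, and 37.78 and 53.63 FPKM in Tnfr2-/-. Psmb7, which carries the trypsin-like activity, was at 89.76 and 86.83 FPKM in WT, 26.82 and 24.58 FPKM in Tnfr1-/-, and 30.01 and 40.06 FPKM in Tnfr2-/-. Both were lowest in Tnfr1-/-, intermediate in Tnfr2-/- and highest in WT, with no overlap between groups. Psmb6 changed by -1.28 ± 0.18 in Tnfr2-/- (limma adjusted p = 0.00177) and Psmb7 by -1.32 ± 0.15 (limma adjusted p = 0.000775). After scaling these were -0.30 and -0.35 and no longer called, although both stayed called in Tnfr1-/-.

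Ratios within a sample do not depend on its scaling. Psmb5 to Psmb6 was 1.48 and 1.46 in WT, 0.632 and 0.608 in Tnfr1-/-, and 0.617 and 0.598 in Tnfr2-/-. Psmb7 to Psmb6 was 0.812 and 0.785 in WT, 0.758 and 0.814 in Tnfr1-/-, and 0.794 and 0.747 in Tnfr2-/-. The first ratio separated WT from both knockouts with little spread, while the second overlapped across all 3 genotypes. With 2 samples against 2 an exact permutation test cannot go below p = 0.33, the value it gave for the separated ratio in each knockout.

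**Figure D3:**
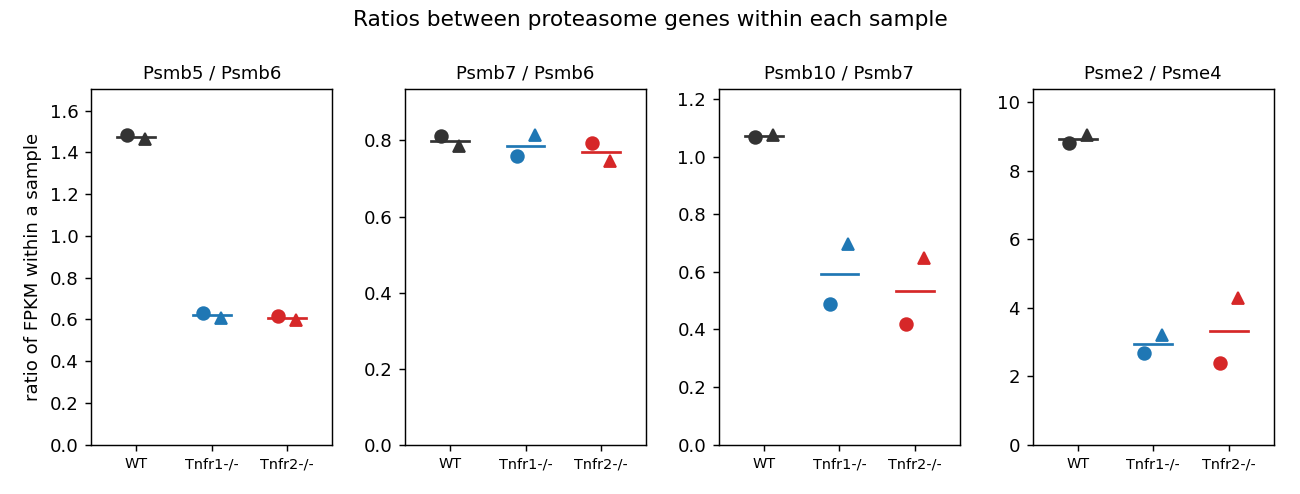
Ratio of FPKM between pairs of proteasome genes within each sample, with circles and triangles for replicates 1 and 2 and lines for group means. Psmb5 to Psmb6 is 1.46 or more in WT and 0.632 or less in both knockouts, whereas Psmb7 to Psmb6 lies between 0.747 and 0.814 in every sample.

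Psmb5 is among the members whose reads can be shared with near-identical copies. In its longest GENCODE M21 transcript, 57.1% of 50-base windows, the read length used, also occur in transcripts of other annotated genes, most of them Gm3375. The figure is 2.67% for Psmb6, 28.1% for Psmb7 and 0 for Psmb10. Psmb3, a structural subunit with 55.8% shared windows, changed by -0.59 in Tnfr2-/-. The part of shared reads in the changes of Psmb5 and Psmb3 was not tested. The tool that made the FPKM values and its handling of such reads are not given in the sources used here, so the levels of Psmb5, Psmb3, Psma5 (55.4%) and Psme2 (59.3%) are uncertain. Of the 40 members 19 had no shared window and 14 had over 5%.

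Promoters of 3 members are shown because they hold the same motif although the genes changed to different degrees. They are RefSeq sequences from GRCm38.p6, 250 bases before to 50 after the start. Capitals mark matches to TGACNNNGC, the core of the antioxidant response element bound by NRF1 and NRF2, and to GGAAGT, an ETS core, searched on both strands, and in these 3 the matches do not overlap.
Psmb5 (chr14:54617946-54618245, minus strand): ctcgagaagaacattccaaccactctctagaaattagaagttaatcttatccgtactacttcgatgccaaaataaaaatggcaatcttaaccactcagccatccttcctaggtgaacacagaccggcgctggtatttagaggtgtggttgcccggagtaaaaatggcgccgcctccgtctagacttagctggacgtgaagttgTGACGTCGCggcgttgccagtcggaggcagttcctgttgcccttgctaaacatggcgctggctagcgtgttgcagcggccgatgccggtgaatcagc
Psmb6 (chr11:70525107-70525406, plus strand): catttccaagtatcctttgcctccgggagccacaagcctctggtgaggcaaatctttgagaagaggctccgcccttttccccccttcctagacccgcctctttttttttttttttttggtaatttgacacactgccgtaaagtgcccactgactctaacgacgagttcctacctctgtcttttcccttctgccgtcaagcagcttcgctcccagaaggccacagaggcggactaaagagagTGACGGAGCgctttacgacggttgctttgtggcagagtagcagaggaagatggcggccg
Psme4 (chr11:30771525-30771824, plus strand): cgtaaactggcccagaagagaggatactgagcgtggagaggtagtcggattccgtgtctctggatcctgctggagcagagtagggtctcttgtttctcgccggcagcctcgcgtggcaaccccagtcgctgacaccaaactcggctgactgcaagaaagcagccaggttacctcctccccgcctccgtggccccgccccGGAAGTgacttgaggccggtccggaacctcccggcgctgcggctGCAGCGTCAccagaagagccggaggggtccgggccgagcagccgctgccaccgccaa

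Of the 40 members 33 had a RefSeq promoter, 36 promoters in all. TGACNNNGC occurred in 6 of these (16.7%), those of Psmb5, Psmb6, Psmc6, Psmd9, Psmd12 and Psme4, and in 12.4% of all 32851 promoters. GGAAGT occurred in 21 (58.3%), against 23.8% of all promoters. CCAAT, the box bound by NF-Y, was in 10 (27.8%, against 37.4% of all), and a core of the interferon-stimulated response element in 3 (8.33%, against 3.44% of all). A match describes the letters and not a bound site.

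The 7 listed alpha subunits, which form the gated outer rings, were all called lower in both comparisons, with medians of -1.13 (Tnfr2-/-) and -1.39 (Tnfr1-/-). Of all genes 57.1% and 60.7% were called lower. After scaling 2 alpha subunits were called lower in Tnfr2-/- and 3 in Tnfr1-/-, beside 21.0% and 22.1% of all genes. Their scaled medians were -0.14 and -0.46. With 1 FPKM added, Psma3 changed most, from 35.51 and 36.83 FPKM in WT to 7.016 and 6.692 FPKM in Tnfr1-/- and 7.685 and 11.71 FPKM in Tnfr2-/-. Its log2 change in Tnfr2-/- was -1.82 ± 0.19 (limma adjusted p = 0.000605), and after scaling -0.88, still called. Psma8, the alpha subunit of spermatogenic cells, was the member with the lowest level, at 1.719 and 1.721 FPKM in WT and 0.09042 to 0.2148 FPKM in the knockouts. At these levels the added 1 FPKM understates its log2 change of -1.19 in Tnfr2-/-. With 0.1 FPKM added, Psma8 changed by -2.66 in Tnfr2-/- and -3.10 in Tnfr1-/-, more than Psma3 (-1.92 and -2.38) or Psmb5 (-2.57 and -3.00). The 7 constitutive beta subunits had medians of -0.96 and -1.36, which became 0.03 and -0.23 after scaling, with 4 of the 7 above 0 in Tnfr2-/-. Psmb3 had the smallest change in Tnfr2-/-, -0.59, which flips to 0.39 after scaling and is not called there.

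In the cap all 17 subunits were called lower in both comparisons, beside 57.1% (Tnfr2-/-) and 60.7% (Tnfr1-/-) of all genes. The medians were -1.34 in Tnfr2-/- and -1.55 in Tnfr1-/-. After scaling 3 of the 17 were called lower in Tnfr2-/- and 4 in Tnfr1-/-, beside 21.0% and 22.1% of all genes. The scaled medians were -0.36 and -0.44. Among the 6 ATPases, which unfold substrates, the largest change was that of Psmc3, from 84.89 and 87.13 FPKM in WT to 26.89 and 24.86 FPKM in Tnfr1-/- and 27.68 and 30.95 FPKM in Tnfr2-/-. The knockout values lay close together, at -1.52 ± 0.08 (limma adjusted p = 9.29e-05) in Tnfr2-/- and -1.70 in Tnfr1-/-. No ATPase was called on the scaled values. There 5 of the 6 stayed below 0 in each knockout, with medians of -0.40 (Tnfr2-/-) and -0.48 (Tnfr1-/-). Psmc3, at -0.55 and -0.58, fell short of the fold threshold.

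Among the 11 non-ATPase subunits Psmd8, a lid subunit, changed most. It was at 157.6 and 162.1 FPKM in WT, 33.52 and 32.02 FPKM in Tnfr1-/-, and 36.51 and 51.14 FPKM in Tnfr2-/-. It had been 2nd of the members in WT and was 11th in Tnfr1-/-. Its log2 change in Tnfr2-/- was -1.86 ± 0.17 (limma adjusted p = 0.000373) and -0.88 after scaling. Psmd4, a ubiquitin receptor of the cap, at -1.84, and Psmd7, a lid subunit that pairs with the deubiquitinase Psmd14, at -1.81, were also called on both scales in both knockouts. The geometric mean of the cap subunits relative to that of the core subunits without Psma8 was 0.622 and 0.626 in WT, 0.640 and 0.641 in Tnfr1-/-, and 0.594 and 0.546 in Tnfr2-/-. Cap to core was thus lowest in both Tnfr2-/- samples, and the exact permutation test is again limited to p = 0.33.

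The immunoproteasome subunit Psmb10 (chr8:105935735-105938444, minus strand), which takes the place of Psmb7, was at 95.96 and 93.22 FPKM in WT, 13.11 and 17.09 FPKM in Tnfr1-/-, and 12.55 and 25.94 FPKM in Tnfr2-/-. The knockouts overlapped each other and both lay far under WT. It changed by -2.32 ± 0.34 in Tnfr2-/- (limma adjusted p = 0.00195) and by -2.58 ± 0.34 in Tnfr1-/- (limma adjusted p = 0.00122), and was called after scaling too, at -1.35 and -1.47. Psmb10 to Psmb7 within a sample was 1.07 in both WT samples, 0.489 and 0.695 in Tnfr1-/-, and 0.418 and 0.647 in Tnfr2-/-. The ratio was higher in WT than in every knockout sample.

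Psme2, a subunit of the interferon-inducible 11S activator, was at 139.3 and 144.4 FPKM in WT, 32.75 and 38.75 FPKM in Tnfr1-/-, and 33.53 and 66.74 FPKM in Tnfr2-/-. Its change in Tnfr2-/- was -1.56 ± 0.33 (limma adjusted p = 0.00663), called on the deposited scale and not after scaling (-0.58). In Tnfr1-/- it was -1.96 ± 0.33 (limma adjusted p = 0.00269) and stayed called after scaling, at -0.84. Psme4 (chr11:30771726-30880361, plus strand), the nuclear activator that promotes degradation of acetylated histones, was at 15.84 and 15.99 FPKM in WT, 12.31 and 12.10 FPKM in Tnfr1-/-, and 14.11 and 15.57 FPKM in Tnfr2-/-. The 6 values spanned a narrow range, with a log2 change of -0.10 ± 0.08 in Tnfr2-/- (limma adjusted p = 0.268), and the direction flips to 0.83, called higher, after scaling. Psme2 to Psme4 was 8.79 and 9.03 in WT and 2.38 to 4.29 in the knockouts. Psme2 to Psmb7 overlapped across genotypes, at 1.55 and 1.66 in WT, 1.22 and 1.58 in Tnfr1-/-, and 1.12 and 1.67 in Tnfr2-/-.

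Psmf1, an inhibitor of the core, was at 6.939 and 6.964 FPKM in WT, 4.178 and 4.517 FPKM in Tnfr1-/-, and 4.351 and 5.501 FPKM in Tnfr2-/-. Its log2 change of -0.43 in Tnfr2-/- missed the fold threshold and flips to 0.41 after scaling. The core assembly chaperones Psmg1 and Psmg3 changed by -1.42 and -1.34 in Tnfr2-/-, and the cap chaperones Psmd5, Psmd9 and Psmd10 by a median of -1.03. All of these chaperones were called lower on the deposited scale, beside 57.1% of all genes. None was called after scaling, beside 21.0% of all genes called lower.

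Between the knockouts, all 40 members had a higher estimate in Tnfr2-/- than in Tnfr1-/-, but none was called different by limma. Of all listed genes 63.1% had a higher estimate, and after scaling the shares were 36 of 40 members and 44.3% of all genes. The median log2 difference was 0.26 (all listed genes 0.06), with the largest at 0.56 for Psma5, and 9 members had an unadjusted p under 0.05 (lowest limma adjusted p = 0.114), as did 1962 of all 8191 genes, a similar share. Of all genes 0.842% were called higher. Both Tnfr2-/- samples lay above both Tnfr1-/- samples for 24 members, beside 34.9% of all genes, and for 17 after scaling, beside 20.5%. Core subunits had a median of 0.41 and cap subunits 0.21. Within the subcomplexes the largest estimates were those of Psmb2 among the constitutive beta subunits (0.51), Psmd12, a lid subunit, among the non-ATPases (0.44) and Psmc5 among the ATPases (0.25).

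This difference rested largely on the second Tnfr2-/- sample. It was the highest of the 4 knockout samples for 38 of 40 members, all but Psmd5 and Psmd10, beside 44.4% of all genes. After scaling it was the highest for 33 of 40, beside 25.9% of all genes. Between the Tnfr2-/- replicates the members' median log2 difference was 0.41 and reached 0.99 for Psmb10, whereas all genes had a median of 0.04. The members' median became 0.26 after scaling. Without the first Tnfr2-/- replicate, 11 members were called higher than in Tnfr1-/- (6.53% of all genes) and the median was 0.47. These were the core subunits Psma3, Psma4, Psma5, Psmb2, Psmb4, Psmb6 and Psmb7, the cap subunits Psmd3, Psmd8 and Psmd12, and the activator Psme2. Without the second, none was called, the median fell to 0.11 and 10 estimates were below 0. In the fits that keep 1 Tnfr2-/- sample, that sample is assumed to vary like the other groups. The 2 Tnfr2-/- samples also differed in B cell markers (167 and 299 FPKM) and in granulocyte and MDSC markers (2200 and 1510 FPKM), and their part in the difference was not tested.

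**Figure D4:**
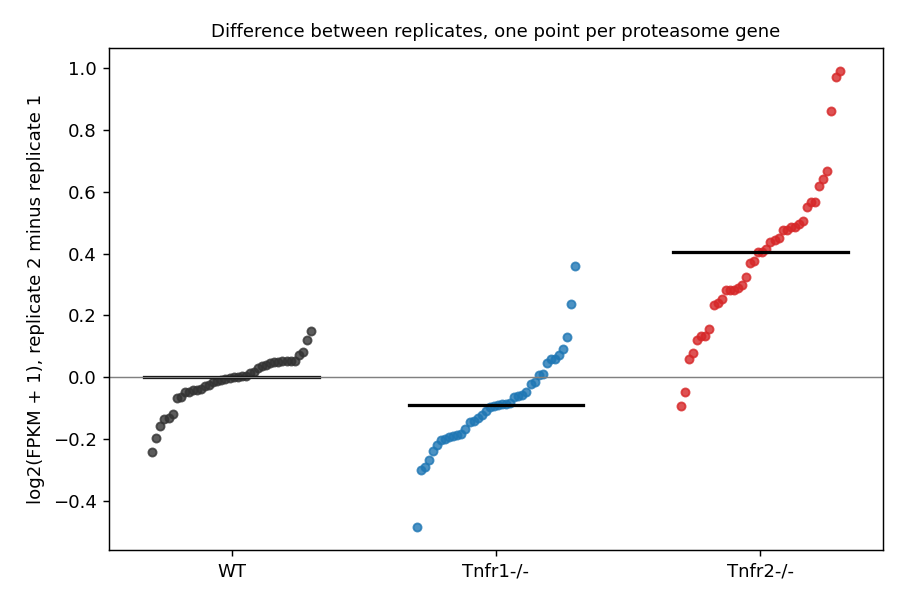
Difference between replicates (log2 of FPKM + 1, replicate 2 minus replicate 1) in each genotype, 1 point per proteasome gene, with bars for medians. The points centre near 0 in WT and just under it in Tnfr1-/-, but lie above 0 for 38 of 40 genes in Tnfr2-/-, with a median of 0.41.

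Genes that act with the proteasome were grouped by their known roles. Of 23 associated factors 14 were listed, and 12 were called lower and 1 higher in Tnfr2-/- against WT. Of all genes 57.1% were called lower, and 1115 of 8191 higher. After scaling 1 factor was called lower and 2 higher, with a median of 0.04, beside 21.0% lower and 21.8% higher of all genes. Pomp, the maturation factor of the core, was at 191.5 and 180.3 FPKM in WT, 64.08 and 62.06 FPKM in Tnfr1-/-, and 77.31 and 115.4 FPKM in Tnfr2-/-. Its change in Tnfr2-/- was -0.97 ± 0.20 (limma adjusted p = 0.00603), which flips to 0.02 after scaling. Usp14, a deubiquitinase of the cap, changed by -1.80 in Tnfr2-/- and stayed called after scaling (-0.88), whereas the ubiquitin ligase Ube3a was called higher on both scales, at 0.80 and 1.57.

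Of 13 regulators of proteasome genes 7 were listed, with 5 called lower and 1 higher in each knockout against WT. Of all genes 57.1% (Tnfr2-/-) and 60.7% (Tnfr1-/-) were called lower, and 1115 and 1151 of 8191 higher. After scaling 1 regulator was lower and 2 higher in Tnfr2-/- (median 0.12), beside 21.0% lower and 21.8% higher of all genes. In Tnfr1-/- 0 were lower and 2 higher (median 0.02), beside 22.1% and 23.3%. The median thus changed direction in both. Nfe2l1, which encodes NRF1, the factor that raises proteasome gene transcription when the proteasome is impaired, was at 48.37 and 50.2 FPKM in WT, 15.64 and 15.41 FPKM in Tnfr1-/-, and 15.46 and 15.19 FPKM in Tnfr2-/-. It changed by -1.62 ± 0.06 in Tnfr2-/- (limma adjusted p = 3.21e-05) and -1.61 in Tnfr1-/-, and after scaling by -0.66 (called) and -0.50 (not called). Ddi2, the protease that cuts and activates NRF1, went the other way, from 5.374 and 5.443 FPKM in WT to 20.9 and 21.04 FPKM in Tnfr1-/- and 18.56 and 22.32 FPKM in Tnfr2-/-. Its rise of 1.74 in Tnfr2-/- (limma adjusted p = 0.000111) was larger after scaling, at 2.58. Maff, a small partner of NRF factors, changed by -1.83 in Tnfr2-/- (limma adjusted p = 0.0274), and its Tnfr2-/- samples lay far apart, at 0.5299 and 4.247 FPKM. The call was lost after scaling (-1.05), in the fit of these 2 groups alone, and without any 1 WT or Tnfr1-/- sample, and leaving out 1 Tnfr2-/- sample gave -0.94 or -2.72. Between the knockouts the largest estimate among the regulators was that of Keap1, the repressor of NRF2, at 0.23.

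Of 12 genes of class I antigen presentation, which displays the peptides made by the proteasome, 7 were listed and 6 were called lower in each knockout against WT, beside the same 57.1% and 60.7% of all genes. After scaling 3 were called lower in Tnfr2-/- and 4 in Tnfr1-/-, beside 21.0% and 22.1% of all genes. H2-K1, a class I heavy chain, changed most, from 1036 and 1118 FPKM in WT to 71.43 and 90.51 FPKM in Tnfr1-/- and 52.81 and 105.2 FPKM in Tnfr2-/-. Its change was -3.83 ± 0.34 in Tnfr2-/- (limma adjusted p = 0.000385) and -2.84 after scaling. Canx, a chaperone that folds class I chains, had the largest difference between the knockouts in this list, 0.50, and was not called (limma adjusted p = 0.0781). Tap1, the peptide transporter subunit, was not analysed here.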

How the data were processed

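The authors sequenced single-end 50-base reads from 6 samples and deposited FPKM values for 8191 genes, with a p-value from their one-way ANOVA, which was not used. The genome build in the submitters' processing notes is mm10. The aligner and FPKM tool are not given in the sources used here, so depth is unknown. Every listed gene has an ANOVA p under 0.05, so the table holds only genes selected for differing among genotypes in these same samples. Adjusted p-values were computed over these selected genes alone, so they do not measure the error rate of the calls. Values were analysed as log2(FPKM + 1) with limma 3.58.1 (R 4.3.3, eBayes with trend) in 1 model of 3 genotypes, two-sided, with Benjamini-Hochberg adjustment over all 8191 genes. Calls need an adjusted p under 0.05 and a fold over 1.5. The fit was tested on simulated data. Named genes were the catalytic subunits and activators, the largest changes in each subcomplex and list, and the targeted receptor genes. Psmd4, Psmd7, Psma8, Psmb3, Psmb4 and the members above 0 after scaling were named after their values were seen. Members and lists were chosen with earlier results of these data known. Replicates are pools of 5 mice from 2 independent experiments. Alternatives were median-ratio scaling, quantile normalization, a pseudocount of 0.1, a minimum mean of 1 FPKM, a fold of 2, pairwise fits, a replicate block and leaving out each sample. Promoters were matched by symbol.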

Additional observations from a re-analysis of the deposited data

How the results depend on the processing

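Scaling decides how many members are called. With median-ratio scaling 7 members were lower and 1 higher in Tnfr2-/- against WT (median -0.25), beside 21.0% lower and 21.8% higher of all genes. In Tnfr1-/- against WT 12 were lower and 1 higher (median -0.41), beside 22.1% and 23.3%. With quantile normalization the counts were 8 lower and 1 higher (median -0.36) and 17 lower (median -0.54). Shares of all genes were not computed for quantile values, so these counts cannot be set against the typical gene. With median-ratio scaling 12 members turned to above 0 in Tnfr2-/- and 7 in Tnfr1-/-. Among the genes named by rule, directions reversed with median-ratio and quantile values for Psme4 (0.83 and 0.65 in Tnfr2-/-, 0.70 and 0.50 in Tnfr1-/-), for Psmf1 (0.41 and 0.29, 0.39 and 0.21) and for Tnfrsf1b in Tnfr1-/- (0.17 and 0.10), and for Pomp in Tnfr2-/- with median-ratio scaling (0.02). Between the knockouts, leaving out 1 sample gave 0 to 11 members called higher and medians from 0.11 to 0.47. The same ranges crossed 0 for Ddi2 (-0.17 to 0.09), H2-K1 (-0.60 to 0.38), Psmb10 (-0.24 to 0.75), Psmc5 (-0.03 to 0.54) and Psme2 (-0.09 to 0.89). Against WT, they were 34 to 38 called lower in Tnfr2-/- and 37 to 39 in Tnfr1-/-. The cause was not tested. Differences between replicates were nearly uncorrelated between genotypes (correlations 0.022 to 0.046), over genes already selected by ANOVA. Whether replicate numbers mark the independent experiments is not given, so pairing cannot be settled. With a replicate block 38, 38 and 0 members were called, and the shares of all genes were not computed. Depth is unknown, and with 2 pooled samples per genotype the spread between animals was not measured.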

Other observations

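Transcript features varied with the change among the 40 members. Across members, the log2 change in Tnfr2-/- against WT had a Pearson r of 0.45 with the length of the longest GENCODE M21 transcript (Spearman rho 0.24) and of -0.45 with its GC content (rho -0.45). The same values in Tnfr1-/- against WT, which shares the WT samples, were 0.49 (rho 0.34) and -0.44 (rho -0.43). The share of 50-base windows found in other genes had r of -0.22 (rho -0.11) in Tnfr2-/- and -0.33 (rho -0.23) in Tnfr1-/-. The members share libraries and are not independent replicates, so these are descriptions. Psme4, with the longest transcript of the members at 6491 bases, changed least. Psmb5 is short, at 899 bases, with 56.6% GC, and changed by -2.53 in Tnfr2-/-. The members with shorter transcripts changed less there. They were Psmb3 (766 bases, -0.59), Psmb6 (798 bases, -1.28), Psmb2 (859 bases, -0.85) and Psmg3 (883 bases, -1.34).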
